A study of Mus musculus with 32 samples.

Results

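Expression of 10 enzymes of serine, glycine and one-carbon metabolism was compared between MYC-driven and MYCN-driven mouse medulloblastoma. The genes were Phgdh, Psat1, Psph, Shmt1, Shmt2, Mthfd2, Mthfd1l, Gcat, Tdh and Gldc, taken by matching the Ensembl identifiers of the count table to these symbols. All 10 were among the 37310 genes of the table, and all 10 passed the filter on low counts that left 21024 genes. Samples were bulk tumor biopsies of 6 GMYC tumors, from mice that carried Glt1-tTA and TRE-MYC, and of 8 GTML tumors, from the corresponding Glt1-tTA model with a MYCN transgene. In both Tet-OFF models the transactivator is made where the Glt1 promoter is active, the transgene runs without doxycycline, and the crosses were kept on the FVB/N strain in immunocompetent animals. Ages of the individual mice and whether each biopsy came from a different animal are not given in the sources used here, so p-values measure the spread between these samples. The study describes a shorter latency for GMYC than for GTML tumors, so age at biopsy and model cannot be told apart.

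Serine is made from a glycolytic intermediate in 3 steps by Phgdh, Psat1 and Psph. Serine hydroxymethyltransferases split serine into glycine and a one-carbon unit carried on folate, with Shmt2 in mitochondria and Shmt1 in the cytosol, and Mthfd2 and Mthfd1l then carry the mitochondrial unit to formate for purine and thymidylate synthesis. Threonine can also give glycine through Tdh and Gcat, and the glycine cleavage system, of which Gldc is the decarboxylating subunit, breaks glycine down into a further one-carbon unit.

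The drivers were checked first. Myc reached between 33.4 and 166 CPM in GMYC tumors (median 144; CPM are counts scaled to library size after normalization between tumors) and between 2.60 and 8.68 in GTML tumors (median 5.23), while Mycn reached 7.65 to 34.4 in GMYC (median 27.9) and 119 to 191 in GTML (median 160). Neither gene's models overlapped, and each tumor was on the side its label gave, although reads from a transgene are counted only where they align to the mouse gene. GMYC tumor 6 had the 33.4 CPM of Myc, with the other 5 GMYC tumors at 134 or more. Otx2, a transcription factor of non-SHH medulloblastoma, was at 237 CPM or more in every tumor. Npr3, a further marker of such tumors, ran from 4.50 to 67.4 CPM in GMYC and from 6.32 to 176 CPM in GTML, with its highest level in GTML tumor 2. The tumor identity list held 8 genes, Otx2, Npr3, Syp, Tubb3, Crx, Nrl, Gfap and Olig2. At an adjusted p under 0.05 in the edgeR test below, 2 were higher in GMYC and 0 in GTML. Over all genes the shares were 9.71% and 11.5%. Olig2, a glial marker, ran from 1.13 to 56.6 CPM in GMYC and from 0.365 to 12.8 CPM in GTML. Gfap, also glial, ran from 19.3 to 230 CPM in GMYC and from 14.6 to 138 CPM in GTML. The study describes a GTML tumor with an SHH-like signature, which the sources used here do not match to a library, and left a GTML tumor out of its comparison of the models. All 8 GTML tumors were kept here.

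Several libraries stood apart in measures other than the enzymes, although Crx and Nrl were chosen after their values were seen. GTML tumor 2 had 97.6 CPM of the photoreceptor regulator Crx, where the other 13 tumors had 298 or more. That tumor also stood apart from its model in Phgdh, Mthfd1l and Gldc. Leaving it out, as done below, was therefore not a choice independent of the enzyme levels. Nrl, also a photoreceptor regulator, was lowest in GMYC tumor 4 (5.80 CPM), with GTML tumor 2 at 18.7 CPM and GMYC tumor 3 at 23.6 CPM. Small nucleolar RNAs took 0.366% or more of the counts in GMYC tumors 1 to 4 and GTML tumors 1 and 2, the first 6 accessions, and 0.272% or less in the remaining 8 tumors, so a comparison within each side is given below. The summed CPM of 4 Y-linked genes was 285 or more in every GMYC tumor but 2.60 or less in 4 of the 8 GTML tumors. The Y-linked level was thus partly confounded with model. Total counts ran from 6218378 to 7279811 in GMYC and from 4602294 to 6317404 in GTML.

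Of the 10 enzymes, 4, namely Gcat, Psat1, Mthfd2 and Mthfd1l, were higher in GMYC tumors at an adjusted p under 0.05 (edgeR quasi-likelihood test, Benjamini-Hochberg adjustment over all genes tested), and 0 were higher in GTML. At the same threshold 9.71% of all genes tested were higher in GMYC and 11.5% were higher in GTML. The median log2 fold change of GMYC over GTML was 0.41 over the 10 enzymes and -0.04 over all genes. Its sign was positive for 8 of the 10, against 47.5% of all genes. DESeq2 called 6 of the enzymes, with Phgdh and Psph added, and 12.1% of all genes higher in GMYC, and limma-voom called 5, with Phgdh added, and 11.4% of all genes. The enzymes called were 1 of the 3 of serine synthesis (Psat1), Mthfd2 and Mthfd1l of the mitochondrial route to formate, and Gcat of the threonine route. Tdh, the other enzyme of that route, was barely detected.

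Gcat, which completes the conversion of threonine to glycine, was the 1 enzyme of the 10 whose models did not overlap. Gcat read 67.5 CPM in the lowest GMYC tumor, 88.0 at the median and 117 in the highest, and 20.0, 26.7 and 54.8 CPM in GTML tumors. Every GMYC tumor was above every GTML tumor, which held for 2.48% of all genes tested. Its level was 2.95-fold higher in GMYC (log2 fold change 1.56, SE 0.23, adjusted p = 0.0018), and Gcat was the 1 enzyme that also passed an adjusted p under 0.01 with a log2 fold change above 1, as did 1.1% of all genes in that direction. Underlying counts were between 501 and 829 in GMYC and between 99 and 337 in GTML. In the GRCm38 annotation 47.5% of its exon bases are shared with a further same-strand gene model of the same name.

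Tdh, the dehydrogenase that feeds Gcat, was barely detected. The highest level in any tumor was 2.16 CPM, from 13 counts, and 1 tumor of each model had 0 counts, which allows up to 3 counts. The models overlapped throughout (log2 fold change -0.30, SE 0.67, adjusted p = 0.77), and no difference was detectable at this depth. Its median level in GMYC was 1.12 TPM, a scale of counts per exon base, beside 125 TPM for Gcat.

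Serine synthesis was represented by all 3 of its enzymes. Psat1, the aminotransferase of the second step, read 190, 233 and 269 CPM in the lowest, median and highest GMYC tumor and 124, 145 and 199 CPM in GTML tumors. Of the 6 GMYC tumors, 5 were above the highest GTML tumor, and 7 of the 8 GTML tumors were below the lowest GMYC tumor. Psat1 was higher in GMYC (log2 fold change 0.59, SE 0.11, adjusted p = 0.0057). GTML tumor 2, at 143 CPM, lay within the range of the other 7 GTML tumors (124 to 199 CPM).

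Phgdh, the first and committing enzyme of the route, was spread more widely over GTML tumors than over GMYC tumors. It read 92.3, 120 and 144 CPM in the lowest, median and highest GMYC tumor and 18.6, 54.8 and 169 CPM in GTML tumors. The coefficient of variation was 16.6% in GMYC and 75.2% in GTML. A single GTML tumor, number 2, lay above every GMYC tumor, and the other 7, at 18.6 to 74.1 CPM, lay below every one. With all 14 tumors the difference did not pass (log2 fold change 0.94, SE 0.37, adjusted p = 0.077); without GTML tumor 2 it was 1.34 (SE 0.27, adjusted p = 0.0038). Psph, the phosphatase of the last step, read 38.4 to 72.4 CPM in GMYC and 29.3 to 51.3 CPM in GTML and did not pass (log2 fold change 0.42, SE 0.16, adjusted p = 0.064). In the annotation 10.4% of its exon bases lie opposite Cct6a, and the strand setting of the counting is not given in the sources used here.

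**Figure D1:**
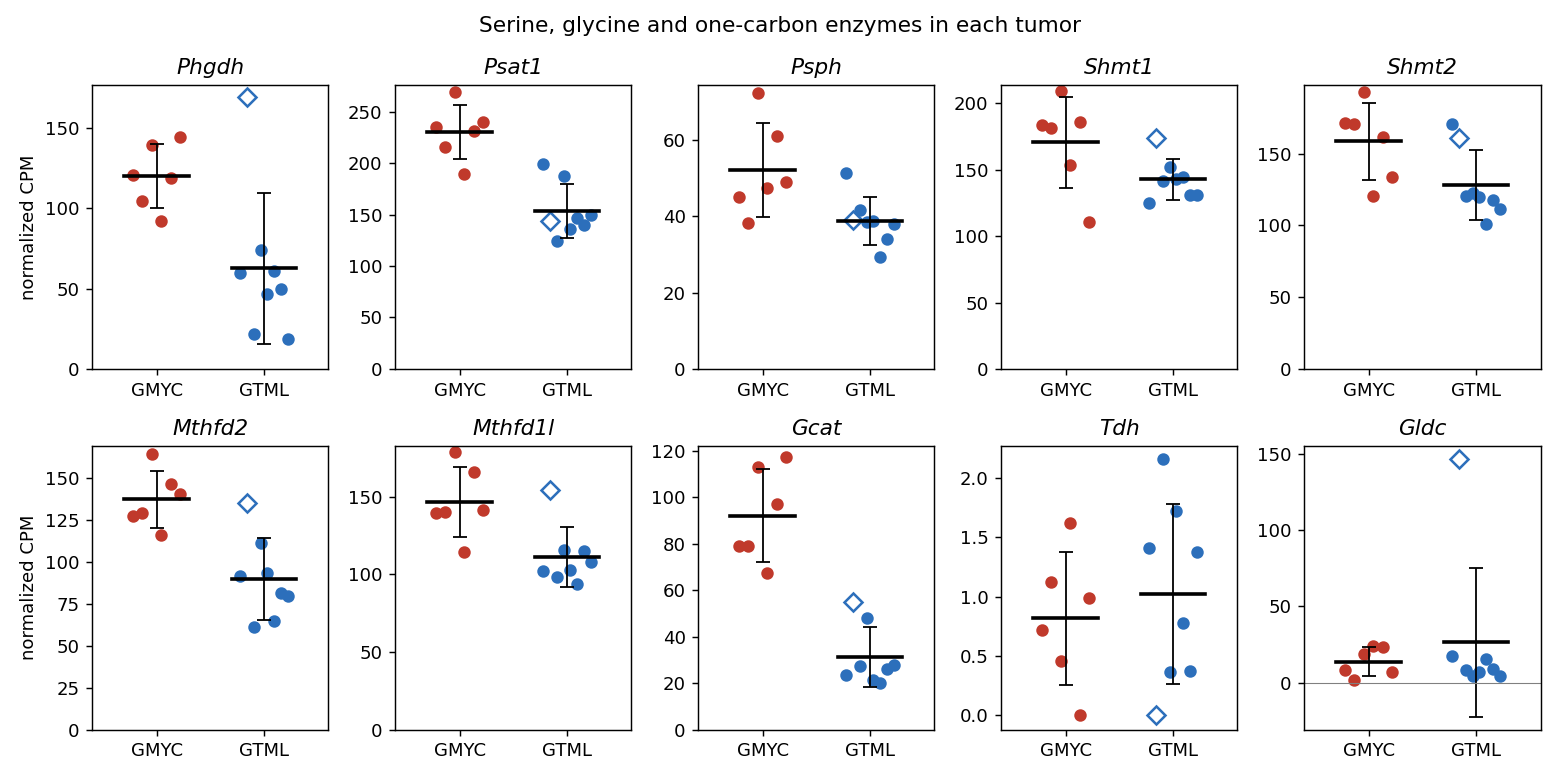
Normalized CPM (vertical axes, linear, one scale per gene) of each enzyme in the 6 GMYC (red) and 8 GTML (blue) tumors; horizontal lines are means, error bars 1 SD, and the open diamond is GTML tumor 2. Gcat shows no overlap between models, Phgdh and Gldc are highest in GTML tumor 2 (169 and 147 CPM), and Tdh stays at 2.16 CPM or less.

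Mthfd2 and Mthfd1l, which carry the mitochondrial one-carbon unit to formate, were both higher in GMYC tumors. Shmt2, the mitochondrial enzyme before them, did not pass the test. Mthfd2, the bifunctional dehydrogenase and cyclohydrolase, read 116, 135 and 164 CPM in the lowest, median and highest GMYC tumor and 61.4, 86.3 and 135 CPM in GTML tumors, a 1.53-fold difference (log2 fold change 0.61, SE 0.16, adjusted p = 0.016). Again 7 of 8 GTML tumors were below the lowest GMYC tumor, the exception being GTML tumor 2. Mthfd1l, which releases formate, read 114, 141 and 179 CPM in GMYC and 93.5, 105 and 155 CPM in GTML (1.32-fold, log2 fold change 0.40, SE 0.12, adjusted p = 0.034). GTML tumor 2, at 155 CPM, was above 4 of the 6 GMYC tumors, while the other 7 GTML tumors did not exceed 116 CPM. Mthfd1l did not pass when GMYC tumor 3 or 5, or GTML tumor 3, 5 or 8, was left out.

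Neither serine hydroxymethyltransferase passed the test. Shmt2 read 120, 166 and 193 CPM in the lowest, median and highest GMYC tumor and 101, 120 and 170 CPM in GTML tumors (log2 fold change 0.31, SE 0.14, adjusted p = 0.11). Shmt1 read 111, 183 and 209 CPM in GMYC and 125, 142 and 174 CPM in GTML (log2 fold change 0.26, SE 0.13, adjusted p = 0.14). GMYC tumor 6 held the lowest Shmt1 of all 14 tumors, and without that tumor Shmt1 was 0.36 higher on the log2 scale (adjusted p = 0.026).

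Gldc was low in both models apart from 1 tumor. GMYC tumors read 1.69, 13.6 and 24.0 CPM at the lowest, median and highest, and GTML tumors 4.20, 8.85 and 147 CPM. GTML tumor 2 carried the 147 CPM, 17.0 times the median of the other 7 GTML tumors, which were at 17.3 or less. The fold change followed that tumor, with a log2 value of -0.94 (SE 0.82, adjusted p = 0.41) over all 14 and 0.56 (SE 0.51, adjusted p = 0.41) without it.

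Levels of different enzymes can be compared only per length. In TPM, the median level in GMYC tumors ran from Psat1 at 185, Shmt2 at 180, Phgdh at 163 and Shmt1 at 154, through Mthfd2 at 132, Gcat at 125 and Mthfd1l at 108, to Psph at 39.4, Gldc at 7.27 and Tdh at 1.12. Among neighbours in that order, the ranges over tumors separated at 2 places, between Mthfd1l and Psph and between Psph and Gldc. In GTML tumors Shmt2 (154) and Shmt1 (149) were first, with Psat1 at 136, Mthfd1l at 97.9, Mthfd2 at 93.1, Phgdh at 79.6, Gcat at 45.1, Psph at 35.1, Gldc at 5.84 and Tdh at 1.5, and every range overlapped that of its neighbour. The overlap of Psph and Gldc came from GTML tumor 2 alone, with 80.3 TPM of Gldc. In the other GTML tumors Gldc was at 10.3 TPM or less, while Psph was at 27.3 TPM or more.

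Several enzymes had their highest or lowest level in the same tumor. GMYC tumor 3 was the highest GMYC tumor for 6 enzymes (Psat1, Psph, Shmt1, Shmt2, Mthfd2 and Mthfd1l), a place it held for 14.2% of all genes, and GMYC tumor 4 was the lowest for 6 (Phgdh, Psat1, Shmt2, Mthfd2, Mthfd1l and Gcat), against 17.1% of all genes. Within GTML, tumor 2 came first for 6 (Phgdh, Shmt1, Mthfd2, Mthfd1l, Gcat and Gldc), against 23.1% of all genes. GMYC tumor 6 was the highest GMYC tumor for 2 enzymes, Gcat (117 CPM) and Phgdh (144 CPM), near the 22.4% it held over all genes. It was the lowest for Shmt1, against 23.9% of all genes. It had the lowest Myc (33.4 CPM) and the highest Mycn (34.4 CPM) of its model.

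**Figure D2:**
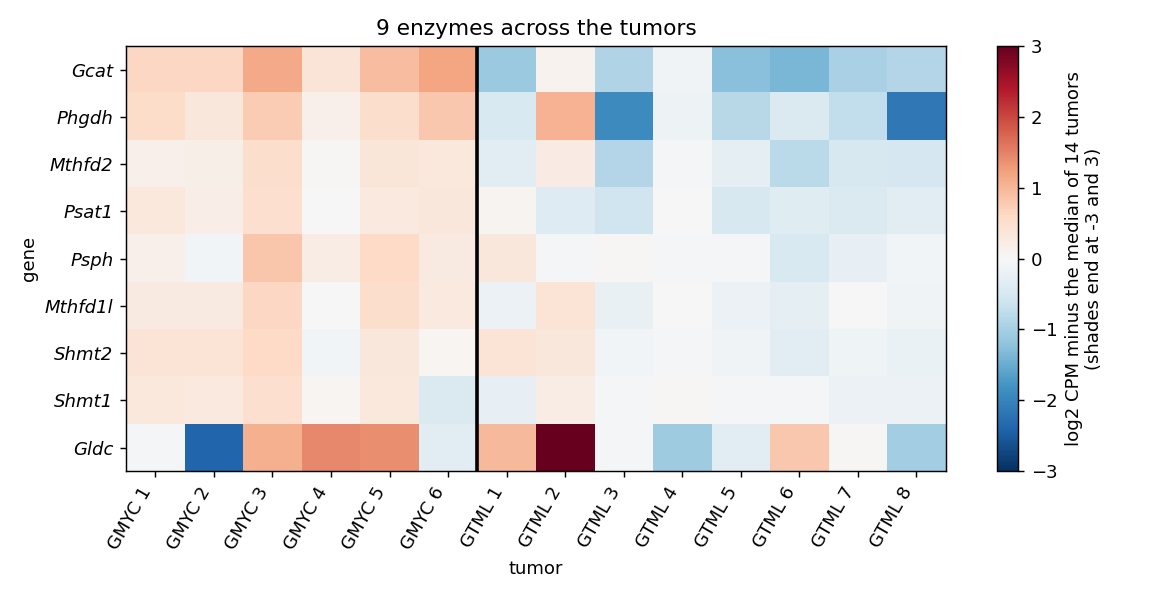
Log2 CPM of 9 enzymes (rows) in the 14 tumors (columns; the black line parts the models), minus each gene's median over the tumors; red is above and blue below that median, and shades end at -3 and 3. GMYC tumor 3 is above the median in every row and GTML tumor 2 stands out in Gldc and Phgdh; Tdh is left out because 2 tumors have a count of 0.

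Leaving out GTML tumor 2 raised the number of enzymes called from 4 to 6, with Phgdh and Shmt2 (log2 fold change 0.36, adjusted p = 0.049) added to the others. In that comparison 15.1% of all genes tested were higher in GMYC. The models did not overlap for 3 enzymes, namely Phgdh, Mthfd2 and Gcat, as for 4.23% of all genes. Leaving out GTML tumor 1 also brought 6 calls, with Psph (adjusted p = 0.034) and Shmt2 (adjusted p = 0.046) added, beside 11.3% of all genes higher in GMYC. Leaving out GMYC tumor 2 added Psph, beside 9.21% of all genes. Without GMYC tumor 6, Shmt1 joined the 4 enzymes called with all tumors, beside 7.96% of all genes.

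The enzymes were then compared within each side set by small nucleolar RNA share. Among the first 6 accessions (4 GMYC and 2 GTML tumors) edgeR called 0 of the 10 enzymes and 0.0106% of all genes, with 2 enzymes, Gcat and Gldc, at an unadjusted p under 0.05. Gcat was 1.10 higher on the log2 scale there (SE 0.37, adjusted p = 0.33), Phgdh differed by -0.02 (SE 0.38) and Shmt2 by -0.03 (SE 0.20). This side holds GTML tumor 2 as 1 of its 2 GTML tumors. Among the other 8 accessions (2 GMYC and 6 GTML tumors) 5 enzymes were called, all higher in GMYC, against 6.69% of all genes in that direction. They were Gcat (1.92, adjusted p = 0.0095), Phgdh (1.55, adjusted p = 0.043), Mthfd2 (0.82, adjusted p = 0.038), Psat1 (0.69, adjusted p = 0.028) and Mthfd1l (0.55, adjusted p = 0.034). The difference between the sides was not itself tested. With side as a term of the model, Gcat, Psat1 and Mthfd2 were called, beside 6.77% of all genes higher in GMYC. With the Y-linked level as a covariate Gcat was the 1 enzyme called (log2 fold change 1.62, adjusted p = 0.015), beside 2.61% of all genes. That covariate was the sum of log2 CPM over the 4 Y-linked genes and was partly confounded with model.

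**Figure D3:**
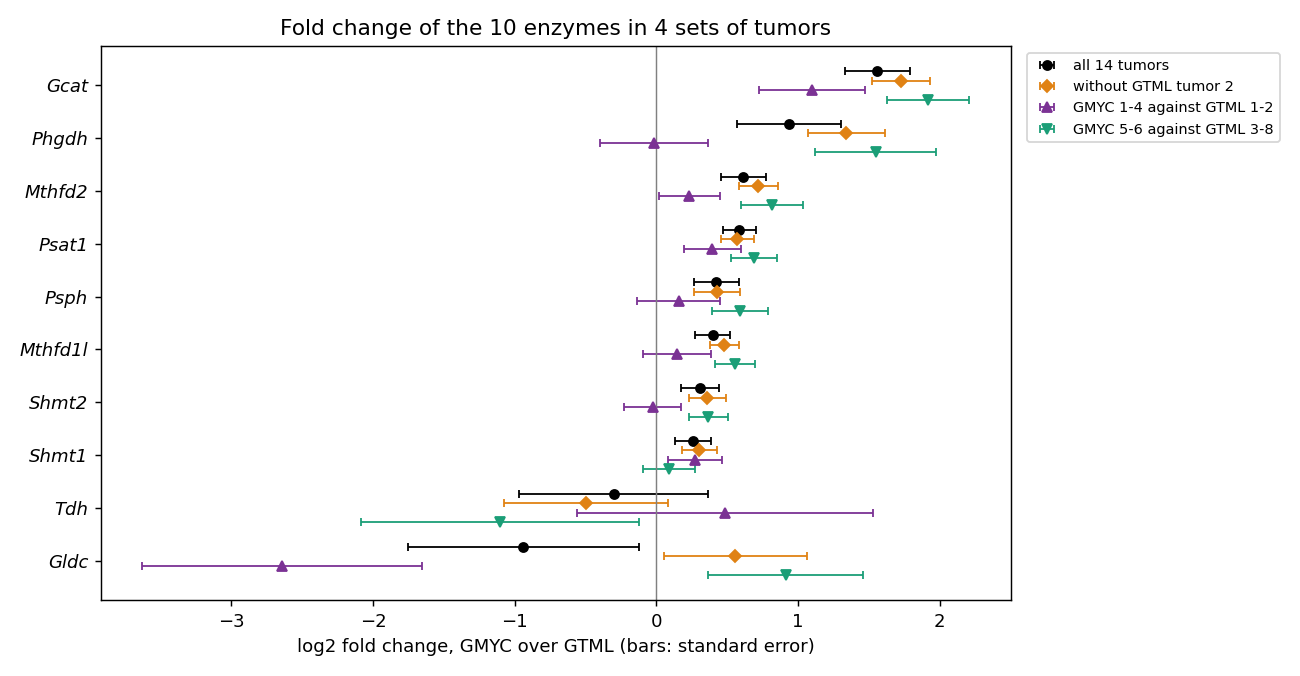
Log2 fold change of GMYC over GTML (horizontal axis) with its standard error for each enzyme in 4 sets of tumors. Gcat lies above 1 in all 4 sets, Phgdh is near 0 among the first 6 accessions (purple), and Gldc changes sign without GTML tumor 2 (orange).

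Other measures differed between the models as well. Over all genes tested, 9.71% were higher in GMYC and 11.5% were higher in GTML. In a list of 10 proliferation genes, 4 were higher in GMYC (Ccnb1, Cdk1, Pcna and Plk1) and 0 in GTML, and the summed level ran from 1916 to 3527 CPM in GMYC and from 1955 to 2608 in GTML. Of 5 blood genes tested, 4 were higher in GMYC, namely the globins Hba-a1, Hba-a2, Hbb-bs and Hbb-bt, whose near-identical copies make the split of reads uncertain, and the list's median log2 fold change was 2.14. Hba-a1 read 9.17 to 35.2 CPM in GMYC and 1.29 to 9.11 in GTML, and Hba-a2 read 6.07 to 24.3 and 0.216 to 5.04, with no overlap for either. The summed level, 53.4 to 176 CPM in GMYC and 41.6 to 134 in GTML, did overlap, and Alas2, the erythroid heme enzyme that was not called, gave 122 CPM of the highest GTML sum. Of 12 astrocyte and radial glia markers 0 were called in edgeR, with 3 at an unadjusted p under 0.05, and their sums were 821 to 1465 CPM in GMYC and 604 to 1001 in GTML. Cd68 was the 1 of 10 microglia and macrophage markers called and Cbln3 the 1 of 9 cerebellar neuron markers, both higher in GMYC. Single calls in lists of this size are near the share of all genes. In the other direction, Kdr and Esam of 8 endothelial markers were higher in GTML (log2 fold changes -1.34 and -0.56), and the list's summed level was 72.5 to 195 CPM in GMYC and 142 to 292 in GTML. Slc4a5 of 6 choroid plexus markers tested (-1.85) and Mog of 7 oligodendrocyte markers tested (-1.56) were also higher in GTML. No marker in these lists had a count of 0 in every tumor. Their part in the enzyme differences was not tested, and in bulk samples fewer cells of a type and less RNA per cell cannot be told apart.

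Ratios between a mitochondrial enzyme and its counterpart do not depend on library scaling. Mthfd2l is a paralog of Mthfd2 in the same step. The ratio of Mthfd2 to Mthfd2l in counts per exon base was 6.92, 8.25 and 14.2 in the lowest, median and highest GMYC tumor and 3.23, 3.88 and 6.27 in GTML tumors, with no overlap. The mean log2 difference was 1.08 (exact two-sided permutation test over 6 and 8 tumors, p = 0.000333, the smallest the design allows, and 0.000999 adjusted over 3 ratios). Mthfd2 had itself passed the test between models, so the ratio is not independent of that call. Mthfd2l itself read 19.6 to 37.3 CPM in GMYC and 33.7 to 57.4 in GTML (log2 fold change -0.42, adjusted p = 0.097). Within the sides the ratio differed by 1.02 and 1.28 on the log2 scale, with exact permutation tests giving adjusted p = 0.10 and 0.11. The few tumors on each side limit how small these p-values can be, and the models did not overlap on either side. Shmt2 to Shmt1 (median 1.16 in GMYC and 1.06 in GTML, exact permutation p = 0.603) and Mthfd1l to Mthfd1 (0.811 and 0.767, exact permutation p = 0.323) overlapped between models. On the side of GTML tumors 1 and 2, Mthfd1l to Mthfd1 did not overlap, at 0.740 or more in GMYC and 0.652 or less in GTML. It overlapped on the other side.

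**Figure D4:**
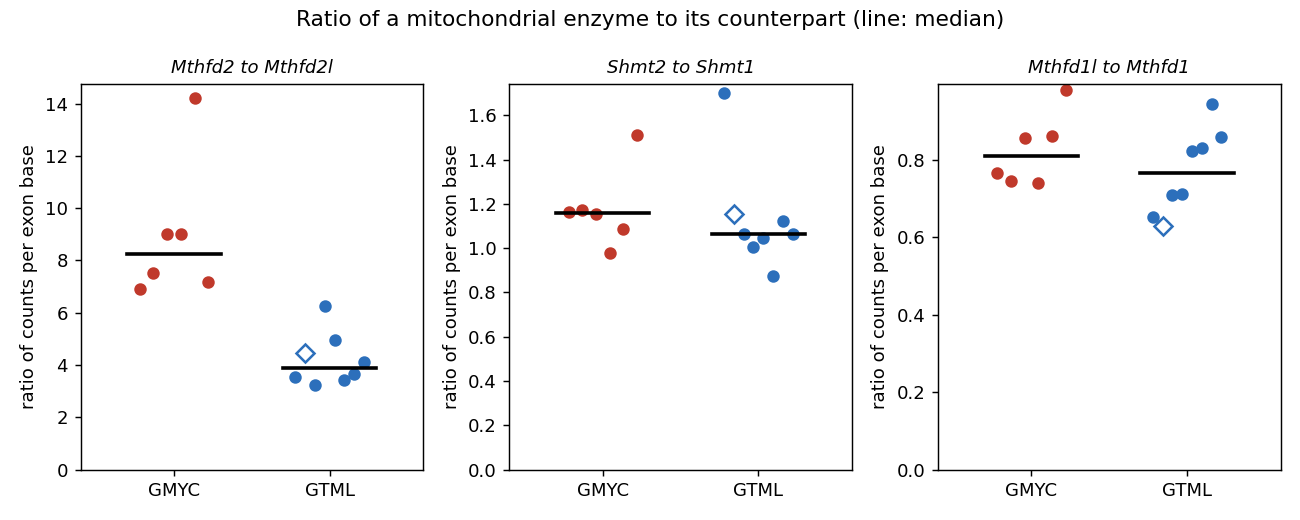
Ratio of counts per exon base in each GMYC (red) and GTML (blue) tumor, on linear axes from 0, for 3 pairs of enzymes; lines are medians and the open diamond is GTML tumor 2. Only the left panel, Mthfd2 to Mthfd2l, parts the models, at 6.92 or more against 6.27 or less.

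Around these enzymes, 88 further genes in 6 pathway lists were examined, of which 78 were tested. Of these, 8 were higher in GMYC and 6 in GTML, together 17.9% of those tested beside 21.2% of all genes called, and the median log2 fold change was 0.19. Among the 3 partners of Gldc in glycine cleavage none was called by edgeR, and none had an unadjusted p under 0.05, with log2 fold changes of 0.27 for Dld, 0.27 for Gcsh and 0.05 for Amt. In the wider folate list of 15 tested genes the 1 call was Slc46a1, the proton-coupled folate transporter, which was lower in GMYC (log2 fold change -0.67, adjusted p = 0.0155).

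Sulfur and methyl metabolism held 2 calls higher in GMYC and 1 higher in GTML, beside 9.71% and 11.5% of all genes. Of 12 tested genes of the methionine cycle and transsulfuration, Cth, which makes cysteine from cystathionine, was higher in GMYC (27.2 against 15.0 CPM at the medians, log2 fold change 0.90, adjusted p = 0.035). Mmachc, which processes cobalamin, was also higher (0.54, adjusted p = 0.032), and Gnmt, which methylates glycine, was lower (-1.03, adjusted p = 0.027), from 3.96 CPM or less in GMYC. Cth lost its call without GMYC tumor 1, 2 or 3 or GTML tumor 4, 6, 7 or 8, Mmachc without GMYC tumor 3 or 5 or GTML tumor 5 or 7, and Gnmt without GMYC tumor 2, 4 or 5 or GTML tumor 7.

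Genes that use or break down serine and glycine gave 2 calls in each direction among 15 tested. Of all genes, 9.71% were higher in GMYC and 11.5% in GTML. Gatm and Gamt, the enzymes that turn glycine and arginine into creatine, were both higher in GMYC (log2 fold changes 0.87 and 0.90, adjusted p = 0.018 and 0.010). Medians were 55.5 against 24.7 CPM for Gatm and 65.0 against 35.9 CPM for Gamt. Srr, serine racemase, and Pipox, which oxidizes sarcosine, were lower (-0.62 and -1.56, adjusted p = 0.031 and 0.015). Srr lost its call without GMYC tumor 3, 5 or 6 or GTML tumor 3, 5, 6 or 7.

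Transport genes gave 3 calls of 12, beside 21.2% of all genes called in either direction. Sfxn1, which carries serine into mitochondria, was higher in GMYC (158 against 102 CPM at the medians, log2 fold change 0.55, adjusted p = 0.013). The plasma membrane carriers Slc6a9, a glycine transporter, and Slc7a10, which exchanges small neutral amino acids, were lower (-0.84 and -1.58, adjusted p = 0.028 and 0.037). Slc7a10 kept its call in 5 of the 14 fits that left out 1 tumor, with log2 values from -2.20 to -1.40, and lost it when any single one of GMYC tumors 2 to 6 or GTML tumors 5 to 8 was left out. Slc6a9 lost its call without GMYC tumor 1 or 3. Of 21 tested genes of the ATF4 and amino acid response, Asns, Slc3a2 and Aldh18a1 were higher in GMYC (0.64, 0.42 and 0.36, adjusted p = 0.016, 0.034 and 0.019) and 0 were higher in GTML. Of all genes tested, 9.71% were higher in GMYC. Slc3a2 lost its call without GMYC tumor 3 or 5 or GTML tumor 3, 5, 6, 7 or 8, and Aldh18a1 without GMYC tumor 3.

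**Figure D5:**
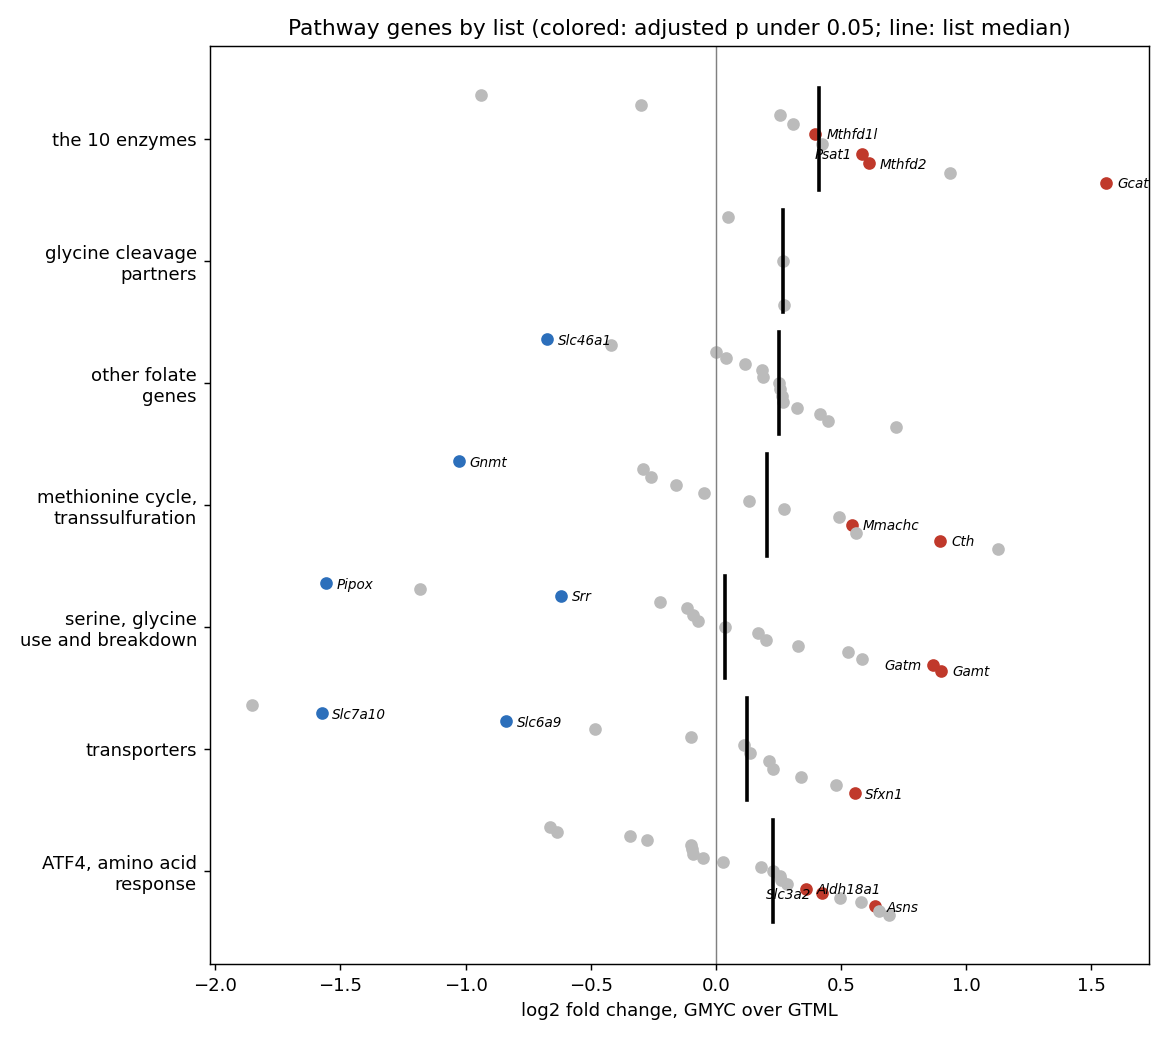
Log2 fold change of GMYC over GTML (horizontal axis) for each tested gene, by list (rows); red and blue points passed an adjusted p under 0.05, grey points did not, and vertical lines are list medians. The enzymes' median of 0.41 is the rightmost, and among points that passed Gcat lies furthest to the right, at 1.56.

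The genes most like each called enzyme across the 14 tumors were sought among 15332 protein-coding genes by Pearson's r of log2 CPM. Gcat was closest to Idi1, an isoprenoid synthesis enzyme (r = 0.97; 0.96 within GMYC and 0.84 within GTML), then to Tra2a and Cnot2. Psat1 was closest to Gde1 (r = 0.95; 0.91 within GMYC and 0.93 within GTML), then to Rpl15 and Gstp2, the last with 0.66 within GMYC. Mthfd2 was closest to Eno1b (r = 0.97; 0.63 within GMYC and 0.96 within GTML), then to Strap and Lars. Mthfd1l was closest to Trip13 (r = 0.94; 0.91 within GMYC and 0.93 within GTML), then to Emb and Abcf1. The points share their libraries and the difference between models, so the coefficients are descriptions only.

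The promoters of the called enzymes were read from RefSeq (GRCm38.p6), which had entries for 9 of the 10 enzymes, Tdh being the exception. They are shown because these genes moved in the same direction, and they run 5′ to 3′ on the gene's strand over the 250 bases before the start, with the first 8 transcribed bases added for Gcat. Capitals mark CACGTG, the E-box that MYC proteins bind with MAX, or CCAAT, the CCAAT box, on either strand. For Psat1 the first of its 2 entries is given.
Gcat (chr15:79030624-79030881, strand +): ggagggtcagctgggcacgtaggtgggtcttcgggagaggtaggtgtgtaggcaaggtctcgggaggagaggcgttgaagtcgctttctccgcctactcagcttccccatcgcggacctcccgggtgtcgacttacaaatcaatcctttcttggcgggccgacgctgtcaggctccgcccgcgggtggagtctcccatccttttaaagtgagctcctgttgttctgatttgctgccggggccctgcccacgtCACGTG
Psat1 (chr19:15925060-15925309, strand -): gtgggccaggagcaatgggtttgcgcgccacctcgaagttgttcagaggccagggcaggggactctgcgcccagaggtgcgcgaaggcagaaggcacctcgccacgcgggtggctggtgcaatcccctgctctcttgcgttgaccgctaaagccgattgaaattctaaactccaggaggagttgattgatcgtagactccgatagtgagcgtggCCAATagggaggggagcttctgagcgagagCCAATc
Mthfd2 (chr6:83317605-83317854, strand -): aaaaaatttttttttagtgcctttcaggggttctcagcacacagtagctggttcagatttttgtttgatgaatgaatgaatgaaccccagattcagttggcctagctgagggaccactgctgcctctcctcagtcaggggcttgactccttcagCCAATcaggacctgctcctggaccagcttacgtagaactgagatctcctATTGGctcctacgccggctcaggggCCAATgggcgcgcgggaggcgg
Mthfd1l (chr10:3972825-3973074, strand +): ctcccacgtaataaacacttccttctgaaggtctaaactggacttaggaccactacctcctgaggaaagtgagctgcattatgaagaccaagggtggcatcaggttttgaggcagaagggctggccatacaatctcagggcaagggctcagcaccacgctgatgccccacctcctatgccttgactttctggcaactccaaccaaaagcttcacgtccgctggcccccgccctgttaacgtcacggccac
An E-box was found in 1 of the 9 enzymes, Gcat, at position 3 after the start, and in 7.15% of 32851 promoters of the same 300-base window. The CCAAT box was found in 6 of 9 (Phgdh, Psat1, Psph, Shmt1, Mthfd2 and Gldc) and in 37.4% of all promoters. An ATF4 core, TGATGNAA, was found in 0 of 9 and in 3.97% of all promoters. These motifs do not overlap each other in the sequences shown, and a match is a description of the letters, not a measured binding site.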

How the data were processed

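RNA from 14 flash-frozen tumor biopsies (6 GMYC, 8 GTML) was sequenced with Ion Torrent chemistry. The authors aligned reads to mm9 with STAR followed by Bowtie and deposited unnormalized featureCounts counts for 37310 genes (versions per the labels: STAR 2.4.0, Bowtie2 2.2, Subread 1.5.2). A further 18 columns of per-sample counts matched no label and were not used.

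Ensembl identifiers were matched to GENCODE for GRCm38 to obtain symbols, gene types and exon lengths. Genes with CPM above 1 in at least 3 tumors entered the quasi-likelihood test of edgeR 4.0.16 (R 4.3.3) after TMM scaling, and p-values were adjusted by Benjamini-Hochberg; log2 CPM used a prior count of 2. Replicates within a model differed beyond sampling noise (lowest chi-square over its degrees of freedom 5.67). Ratios were compared by exact permutation tests, and limits at a count of 0 cover counting error only. Alternatives used DESeq2 1.42.0, limma-voom (limma 3.58.1), other filters, a replicate block, single tumors left out, the library side and Y-linked genes. On simulated counts for 20620 genes of this comparison, edgeR called 27 of 96 genes changed by 1 on the log2 scale and 76 of 97 changed by 2. The changed genes were drawn at any expression level and were far fewer than the genes called in the data. These shares are therefore not the power for the enzymes.

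The enzymes, gene lists and tests were chosen with earlier results of these data known. All 10 enzymes, Myc and Mycn were named, with every called gene of each pathway list or, where more than 4 or none were called, the 3 with the smallest p, and the 3 genes most alike each called enzyme. Mthfd2l and Mthfd1 enter as partners in the ratios tested. Crx, Otx2, Npr3 and the other tumor identity genes, the proliferation, blood and other cell type marker genes and the CCAAT box fall outside that rule. They were chosen after their values were seen. Figures were drawn with matplotlib 3.10.9.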

Additional observations from a re-analysis of the deposited data

Results flagged for a closer look

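Of 64 groups of tumors checked (a gene or ratio in 1 model), 9 had a tumor whose gap to its nearest neighbour was large for the range of the group. Chance would give about 1 in 20, or 3.2, if the groups were independent and chosen without regard to their values. They share libraries, and several of the genes were named because they were called, so no excess over 3.2 can be read. Of the 9 flags, 4 concerned GTML tumor 2, which exceeded the rest of its model in Phgdh (169 CPM, next 74.1), Mthfd1l (155 CPM, next 116), Gldc (147 CPM, next 17.3) and the creatine synthesis gene Gatm (54.8 CPM, next 35.3). GMYC tumor 6 had less Myc than any other of its model (33.4 CPM, next 134) and the highest ratio of Shmt2 to Shmt1 (1.51, next 1.17). That ratio was also highest in GTML tumor 1 among GTML tumors (1.70, next 1.15). The ratio of Mthfd2 to Mthfd2l was highest in GMYC tumor 5 (14.2, next 9.02). Slc7a10 was highest in GMYC tumor 1 (3.30 CPM, next 1.13), from low counts.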

How the results depend on the processing

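Gcat, Psat1 and Mthfd2 were called by edgeR, DESeq2 and limma-voom, without TMM, under each filter and without any single tumor. Leaving out 1 tumor gave 3 to 6 enzymes called and 7 to 25 other pathway genes, with 7 without GMYC tumor 3, 9 without GMYC tumor 5, 8 without GTML tumor 7 and 25 without GTML tumor 2. Over these fits all genes called in either direction ran from 12.5% (without GMYC tumor 3) to 30.7% (without GTML tumor 2). Mthfd1l lost its call without GMYC tumor 3 or 5 or GTML tumor 3, 5 or 8. DESeq2 gave Phgdh an adjusted p of 0.047 and Psph 0.042, and limma-voom gave Phgdh 0.019.

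Within the first 6 accessions edgeR called 0 enzymes (2 at an unadjusted p under 0.05) and 0 other pathway genes (7 at that p); log2 fold changes turned to -0.016 for Phgdh, -0.027 for Shmt2, 0.49 for Tdh, -0.041 for Dld and -0.23 for Gcsh, and the Shmt2 to Shmt1 ratio to -0.33. The Mthfd2 to Mthfd2l difference was 1.02 there (exact permutation, adjusted p = 0.10) and 1.28 within the other 8 (0.11), where fewer tumors limit the p; Gldc was 0.91 within the other 8. With the Y-linked covariate 1 enzyme (Gcat) and 3 other pathway genes were called, and Tdh (0.33) and Gldc (0.26) were positive. With side as a term 7 other pathway genes were called. Gldc was 0.56 without GTML tumor 2; with single tumors left out Amt ran from -0.042 to 0.18, Gldc from -1.17 to 0.56, and the Shmt2 to Shmt1 ratio from -0.0014 to 0.16. The causes were not tested.

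Same-numbered tumors of the 2 models did not deviate together (r from -0.21 to 0.24 over 6 pairs, 1 of them above 0.1), and 2 of 12 tumors correlated best with their own number. The replicate block on tumors 1 to 6 left 1 enzyme (Gcat, adjusted p = 0.048; 0.437% of all genes higher in GMYC) and 1 other pathway gene called; the same tumors without the block, added after seeing the data, gave 3 and 8, beside 5.11% of all genes higher in GMYC and 11.5% called in either direction. Depth limits Tdh, at 13 counts or fewer, and Gldc, at 12 counts in the lowest tumor.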
